A study of Drosophila melanogaster with 18 samples.

Results

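The comparison described here sets testes of Drosophila melanogaster in which PCF11 was knocked down with the RNAi line labelled NIG (group PCF11_NIG_KD, genotype bamGal4>PCF11-NIG-KD) against control testes that carried the driver bamGal4 alone. Each group had 2 libraries, so 4 of the 18 libraries of the series entered the comparison. Its members were all 529 gene entries of the deposited table of raw counts per poly(A) site, the same entries as in the whole series. Of these, 525 had enough counts to be tested. A gene entry is 1 set of alternative sites. Some symbols have more than 1 entry, and those are given here with the suffix that the files use. The groups PCF11_KD (bamGal4>PCF11-KD, another RNAi line) and cbc_KD (bamGal4>cbc-KD) were used for direct comparison with PCF11_NIG_KD, also with 2 libraries each. All of these groups carry bamGal4, whose bam promoter is active in germ cells and not in the somatic cells of the testis, and the study describes the knockdowns as spermatocyte knockdowns. Whole testes were sequenced, about 150 pairs per library, from progeny moved to 29 °C after the crosses had stood for 3 days at 25 °C. In such bulk samples, fewer cells of a type and less RNA per cell cannot be told apart. Libraries are called duplicates in the labels, with no word on separate crosses. SD, SE and p-values therefore measure the spread between duplicate libraries, which may be technical. For tests of single genes that spread was estimated from all 18 libraries, other knockdowns included. The sample-sheet numbers in the column headers repeat between groups of the series, so more than 1 sheet was used. Which groups shared a sheet is not stated, so a sheet and the groups compared here cannot be told apart.

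Most genes can end their transcripts at more than 1 place. The nascent RNA is cleaved and a poly(A) tail is added at a site recognised by a large protein complex, and the choice between a proximal site (close to the coding region) and a distal site (further along) sets the length of the 3′ untranslated region (3′ UTR). PCF11 is a subunit of cleavage factor II, in which its partner is Clp1, encoded in flies by cbc. It binds the C-terminal domain of RNA polymerase II and joins cleavage to the end of transcription. In the testis, germ cells change from mitotic spermatogonia to spermatocytes, which transcribe heavily before the meiotic divisions and then form spermatids. The study asks how the choice of site is regulated in this lineage.

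The libraries were made from the 3′ ends of transcripts and held 342763 and 371119 counts in the controls and 688285 and 819286 in PCF11_NIG_KD. The gene with most counts took 4.40% to 5.90% of a library. Of 24 listed factors of cleavage and polyadenylation, PCF11 among them, 0 were measured, so the remaining level of the knocked-down gene was not seen in these tables. The count tables hold marker genes of spermatocytes (3 of the 23 listed) and of spermatids (4 of 22), all with counts in each of the 4 libraries, and none of the 13 listed genes of accessory gland, muscle and fat.

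For each gene the proximal share is the percent of the counts of its site pair found at the proximal one. The median share over the 525 genes was 76.1% and 78.6% in the controls and 68.8% and 68.3% in the knockdowns. Both knockdown libraries lay below both controls, and the exact permutation test of 2 against 2 libraries gave its smallest possible two-sided p of 0.333. In edgeR's quasi-likelihood test, with p-values adjusted by Benjamini and Hochberg over all 525 genes, 178 genes moved toward the distal site (33.9% of genes tested) and 65 toward the proximal site (12.4%). Without control replicate 1 the latter number was 41. The share was lower in both knockdown libraries than in both controls for 281 genes (53.5%) and higher in both for 134 (25.5%), and every called gene was among them. The size of the moves was broad. Of the 178 genes toward the distal site, 152 fell by at least 10 points, 95 by at least 20, 52 by at least 30 and 5 by at least 50. Of the 65 toward the proximal site, 46 rose by at least 10 points and 17 by at least 30. In 61 of the 178 genes most counts changed from the proximal to the distal site, and in 19 of the 65 from the distal to the proximal site. A call of no change was often one of limited precision. Of the 282 genes without a call, 52 had a 95% interval of the log2 odds that lay within 1 on either side of 0.

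**Figure D1:**
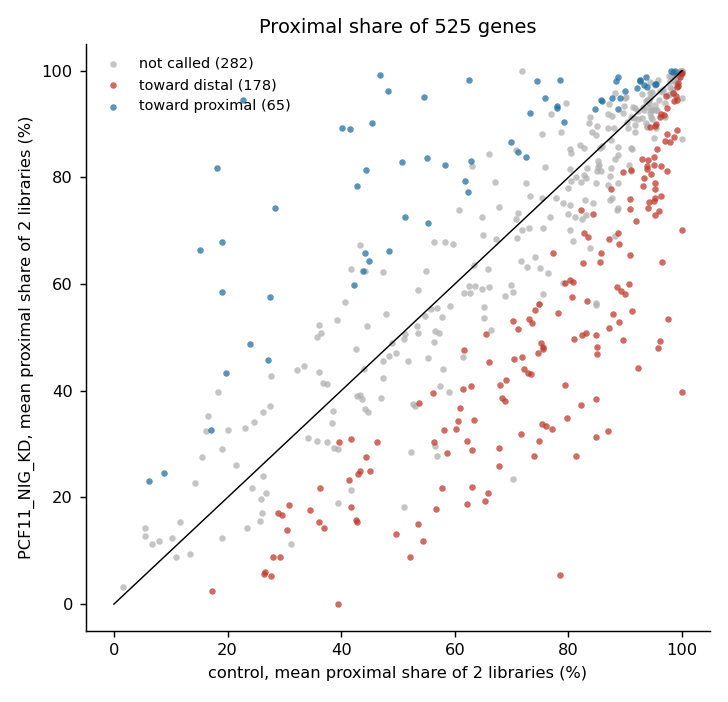
Mean proximal share of each of the 525 tested genes in control (horizontal axis, percent) and PCF11_NIG_KD (vertical axis, percent), n = 2 libraries each; red points are the 178 genes called toward the distal site, blue the 65 called toward the proximal site, grey the 282 not called, and the line marks equal shares. Red points lie below the line across the whole range of control shares, and blue points lie above it.

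Genes are named as those with the greatest moves only where they had a mean of at least 30 counts over the 4 libraries. Both knockdown libraries also had to lie on the same side of both controls, as they did in every called gene. Among genes that moved toward the distal site, the greatest fall was that of Dl (Delta), the ligand of the Notch receptor, on chromosome arm 3R with sites at 19304752 (proximal) and 19304328 (distal) on the minus strand; coordinates are those of the files, whose builds the submitters name as dm6 and BDGP6. Its share was 78.7% and 78.4% in the controls and 9.72% and 1.37% in the knockdowns, from 94, 74, 72 and 73 counts. The control libraries agreed closely and the groups lay far apart, with log2 odds of −5.92 ± 0.57 (SE) and an adjusted p of 2.26e-06. The 424 nt between the sites lie inside the annotated 3′ UTR. A further distal site of Dl held at most 2.63% of its counts in any of the 4 libraries; when that site replaced the distal site, the call was lost (adjusted p = 0.770). Dl was also one of the genes whose total was lower.

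The next greatest fall was that of a gene of the cell cycle. Cks30A, a small subunit of cyclin-dependent kinases that is needed in meiosis, had shares of 86.3% and 87.5% in the controls and 29.2% and 35.7% in the knockdowns, with log2 odds of −3.78 ± 0.43 and an adjusted p of 8.97e-06. Its sites lie at 9331672 and 9332027 on the plus strand of 2L, the distal one downstream of the annotated gene end. In pim, the fly securin, the share was 62.0% and 62.4% against 17.1% and 20.5% (adjusted p = 2.11e-06). In vih, an E2 ubiquitin-conjugating enzyme that works with the anaphase-promoting complex, it was 86.4% and 88.0% against 52.1% and 51.6% (adjusted p = 4.80e-08). In all 3 genes the replicates lay close together and the groups far apart. Wee1, mei-S332, gwl, fzr, CycA, CycB and twe made up the rest of the 10 of 16 tested genes of the cell cycle and meiosis list that moved toward the distal site (62.5%, against 33.9% of all genes). Their changes were smaller in points where the control share was close to 100%: twe, the Cdc25 phosphatase of male meiosis, went from 99.3% and 98.9% to 94.2% and 94.97%, and CycB from 98.5% and 98.9% to 86.0% and 89.1%. Mnn1 (menin), tws (a regulatory subunit of protein phosphatase 2A) and CycT moved the other way, 3 of the 16, beside 12.4% of all genes. The differences from all genes were not tested, and the list was written with earlier results of these data known. In CycB3 (89.7% and 92.6% against 86.2% and 84.3%, adjusted p = 0.0590) and Bub1 (43.6% and 35.1% against 31.7% and 26.4%, adjusted p = 0.177) the change did not pass the test.

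Chd1, a chromatin remodeller, and MCU, the pore of the mitochondrial calcium uniporter, fell by nearly the same amount. In Chd1 the share was 72.8% and 90% in the controls and 30.2% and 25.2% in the knockdowns, and in MCU it was 86.3% and 83.6% against 32.9% and 29.6%. The controls of Chd1 lay further apart than those of MCU, but both stayed far above the knockdowns. The adjusted p was 0.000653 for Chd1 and 8.38e-07 for MCU. A second mitochondrial gene, Mitofilin, whose product shapes the cristae, had 82.2% in each control and 35.5% and 39.3% in the knockdowns (log2 odds −2.95 ± 0.16, adjusted p = 2.26e-08). HtrA2, a mitochondrial protease, went from 95.5% and 94.9% to 74.2% and 71.8% (adjusted p = 1.84e-06). Tom40, the channel of the outer membrane, moved the opposite way, from 78.3% and 77.5% to 94.4% and 92.3% (adjusted p = 5.92e-06), while its receptor partner Tom70, with CG18788 annotated on the opposite strand, had 86.4% and 85.2% against 84.7% and 87.1% (adjusted p = 0.988). Of the 7 mitochondrial genes measured, 3 moved toward the distal and 1 toward the proximal site, beside 33.9% and 12.4% of all genes.

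The gene labelled isopeptidase-T-3, named Kpc2 in the current annotation, had a share of 95.8% in each control and of 48.3% and 47.6% in the knockdowns, from a mean of 2199 counts. Its distal site, at 19673483 on the plus strand of 2R, lies 530 nt beyond the proximal one and downstream of the annotated gene end. The log2 odds were −4.65 ± 0.26 with an adjusted p of 2.58e-08. The ubiquitin ligases dgrn (75% and 72.9% against 24.8% and 30.7%) and Trc8 (75.3% and 79.1% against 34.8% and 30.7%) changed by −46.2 and −44.4 points, with adjusted p of 0.000526 and 9.46e-07. For Cbl, a ligase that acts on receptor tyrosine kinases, both entries moved toward the proximal site. The share of Cbl-PB rose from 41.2% and 15.4% to 71.0% and 77.6% and that of Cbl-PA from 42.0% and 46.6% to 81.4% in both knockdowns. The controls of Cbl-PB rest on 17 and 13 counts and lie far apart, so that this entry is the less precise of the pair. The share of gzl, a ligase of endosomes, rose from 17.2% and 20.8% to 55.2% and 61.8% (adjusted p = 0.000902). In all, 7 of 19 tested genes of the ubiquitin list moved toward the distal site (36.8%, near the 33.9% of all genes). Another 4 moved toward the proximal site, beside 12.4% of all genes. Among those not called were Cul3, with 94.2% and 94.7% against 95.5% and 94.1%, and Usp7, with 20.4% and 28.0% against 20.03% and 23.4% (adjusted p = 0.695 and 0.646).

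Of the remaining genes with the greatest falls, bbg encodes a PDZ-domain protein and the others are known only by annotation numbers. The share of bbg was 60.8% and 69.8% in the controls and 19.4% and 19.3% in the knockdowns (adjusted p = 0.000636). CG4686, one of the most abundant genes of the tables with a mean of 13782 counts, had 67.2% and 64.4% against 20.9% and 20.7% (adjusted p = 2.58e-08); the gene Mrp5 is annotated on the opposite strand at one of its sites, and counting did not use strand. CG5065 went from 86.2% and 83.6% to 39.2% and 37.7% (adjusted p = 2.58e-08) and CG11030 from 95.8% and 96.3% to 53.6% and 45.1% (adjusted p = 4.57e-05). In each of these 4 genes the replicates lay close together. Evidence was thinner for CG42588 and CG5916. CG42588 had only 13 and 14 counts in the controls, with shares of 84.6% and 100% against 44.1% and 44.3%, and its adjusted p of 0.00482 became 0.0646 without control replicate 2. CG5916 had a mean of 33.5 counts, with 77.8% and 81.8% against 35.4% and 34.2%, and its adjusted p of 0.0215 became 0.0526 to 0.186 when any of the 4 libraries was left out.

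**Figure D2:**
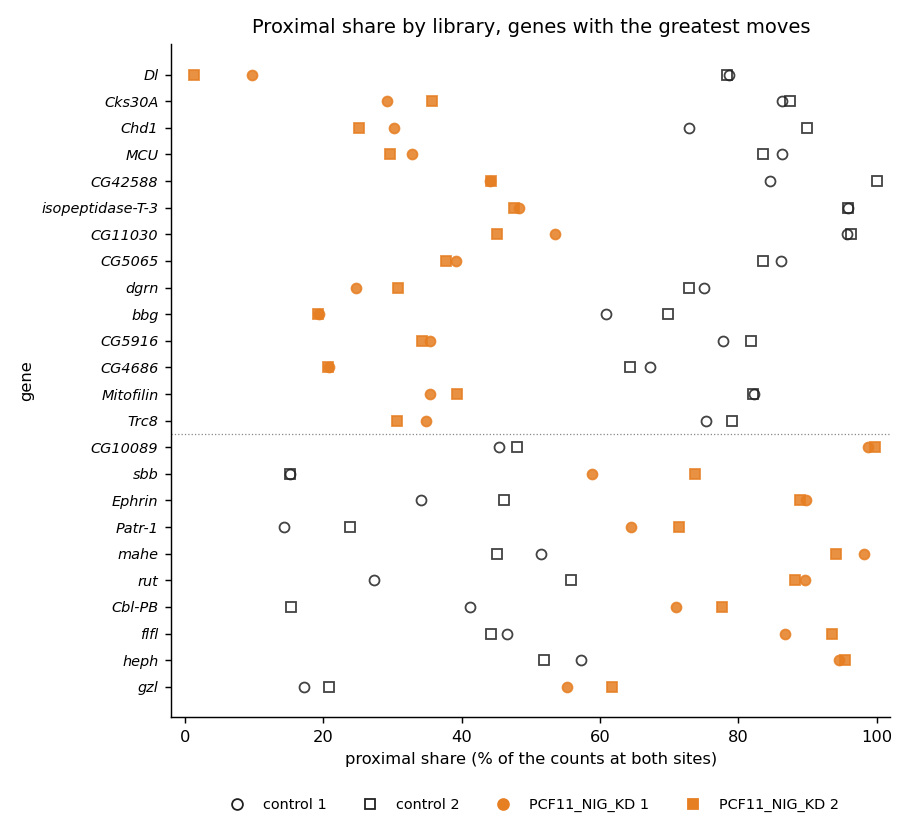
Proximal share (horizontal axis, percent of the counts at both sites) in each of the 4 libraries for the 14 genes with the greatest called falls and, under the dotted line, the 10 with the greatest called rises; open symbols are controls, filled symbols PCF11_NIG_KD, circles replicate 1 and squares replicate 2. In every gene shown both knockdown libraries lie on the same side of both controls, as the choice of genes required.

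Among genes that moved toward the proximal site and had at least 30 counts, CG10089 rose most. Its share was 45.5% and 48.1% in the controls, from 55 and 52 counts, and 98.7% and 99.7% in the knockdowns, from 538 and 361 counts, with log2 odds of 6.97 ± 0.67 and an adjusted p of 2.26e-06. Its total had the greatest rise of those called. sbb, a transcriptional corepressor, had 15.2% in each control and 58.9% and 73.7% in the knockdowns (adjusted p = 0.000361). In Ephrin, the ligand of the Eph receptor, the share was 34.2% and 46.1% against 89.8% and 88.9% (adjusted p = 2.24e-06). Proximal and distal sites of sbb and Ephrin lie only 136 and 154 nt apart. In mahe, a DEAD-box RNA helicase, they lie 3561 nt apart, and the share rose from 51.5% and 45.1% to 98.1% and 94.1% (adjusted p = 8.37e-05). These genes were chosen for the size of their rises, so their rises cannot be compared by spacing.

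RNA-binding proteins were found in both directions. The share of heph, the fly polypyrimidine tract-binding protein, rose from 57.3% and 51.9% to 94.6% and 95.4%, from a mean of 1432 counts (log2 odds 3.98 ± 0.42, adjusted p = 4.64e-06). That of Patr-1, which promotes removal of the mRNA cap, rose from 14.3% and 23.8% to 64.5% and 71.4% (adjusted p = 0.00261). In contrast the share of Hrb98DE, an hnRNP protein, fell from 67.0% and 77.2% to 41.4% and 46.9% (adjusted p = 0.000169). The entry loqs-PB of loqs, a partner of Dicer enzymes, fell from 83.4% and 83.3% to 57.8% and 55.8% (adjusted p = 4.64e-06). The other entry, loqs-PD, was not called. Of the 12 tested entries of the RNA-binding, translation and decay list, 4 moved each way, beside 33.9% and 12.4% of all genes. The 2 with most counts that were not called were orb2 (98.05% and 97.1% against 94.8% and 96.2%, adjusted p = 0.0813) and Imp (90.8% and 92.5% against 92.9% and 93.0%, adjusted p = 0.395).

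Of 27 tested signalling genes, 7 moved toward the proximal site and 6 toward the distal site, beside 12.4% and 33.9% of all genes; the difference from all genes was not tested. Beside Dl and Ephrin, the adenylyl cyclase gene rut had 27.4% and 55.8% in the controls and 89.7% and 88.2% in the knockdowns (adjusted p = 8.91e-05), and flfl, a subunit of protein phosphatase 4, had 46.6% and 44.3% against 86.7% and 93.5% (adjusted p = 0.00142). The controls of rut lay far apart but below both knockdowns. Src42A, a Src-family kinase, had few counts, a mean of 17.8, and shares of 9.09% and 27.3% against 100% and 63.6%; its adjusted p of 0.00947 became 0.0596 without control replicate 1. Not called were Pdk1 (93.5% and 93.3% against 93.0% and 92.4%) and Gprk2 (1.72% and 1.58% against 2.88% and 3.64%), with adjusted p of 0.800 and 0.110. RasGAP1, which turns off Ras, moved the other way: its proximal site had 28 of 72 counts in the controls and 0 of 67 in the knockdowns, which allows a share of up to 4.48% (3 counts of the total, counting error only).

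Chromatin and transcription genes made up the longest list, with 11 of 30 toward the distal site (36.7%) and 5 toward the proximal, beside 33.9% and 12.4% of all genes. Beside Chd1 and sbb, the share of ear, a component of a complex that promotes elongation, fell from 83.6% and 75.3% to 46.3% and 35.7% (adjusted p = 0.00150). Mnn1, which is also in the cell cycle list, went from 22.7% in each control to 92.6% and 96.3%, a rise of 71.7 points that was greater than that of CG10089 but rests on a mean of only 24.5 counts (adjusted p = 6.35e-05). Su(Tpl) (87.2% and 90.2% against 85.7% and 85.6%) and the histone demethylase gene Kdm4A (32.6% and 42.4% against 39.96% and 42.7%) were not called, with adjusted p of 0.176 and 0.543.

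In the smaller lists, 5 of 11 membrane trafficking genes moved toward the distal site and 1 toward the proximal site, beside 33.9% and 12.4% of all genes. EMC1, a subunit of the membrane-protein insertion complex of the endoplasmic reticulum, fell from 72.9% and 76.6% to 31.0% and 30.2% (adjusted p = 5.92e-07). The clathrin heavy chain gene Chc went from 82.6% and 88.6% to 60.2% and 68.1% (adjusted p = 0.000125), and the SNARE gene Syx6 from 73.7% and 77.3% to 46.3% and 50.1% (adjusted p = 0.00304). In these 3 genes both knockdown libraries lay below both controls. The GTPase gene Rab5 rose from 45.8% and 39.6% to 76.0% and 80.9%, but its adjusted p of 0.0477 became 0.103 to 0.177 when any of the 4 libraries was left out. Among 6 genes of transport, the cation channel gene Trpm fell from 97.1% and 97.9% to 50.6% and 56.3% (adjusted p = 4.80e-08), and the sodium-proton exchanger gene Nhe3 rose from 75.9% in each control to 95.8% and 93.9% (adjusted p = 0.000415). Of 11 tested entries of the centriole, microtubule and motor list, 2 moved toward the distal site and 2 toward the proximal site, beside 33.9% and 12.4% of all genes. Those toward the proximal site were Tat and cnn, and Tat lost its call when either control was left out. Those toward the distal site were chb (24.7% and 30.8% against 5.43% and 4.94%, adjusted p = 0.00260), which encodes a microtubule plus-end protein, and the centriole gene spd-2 (50.0% and 57.5% against 36.7% and 38.8%). The adjusted p of spd-2, 0.0264, became 0.0670 to 0.183 without control replicate 2 or either knockdown library. Eb1, another plus-end protein, had 90.4% and 90.2% against 90.6% and 90.05%, with a 95% interval of −0.72 to 0.72 for the log2 odds. Of the 3 actin genes, none moved toward the distal site and WASp moved toward the proximal site, beside 33.9% and 12.4% of all genes. The share of WASp was 85.7% and 94.1% against 96.1% and 96.2% (adjusted p = 0.0102). Control replicate 1 decided this call, which was lost without it (log2 odds 0.67). Of the 141 genes known only by an annotation number, 57 moved toward the distal site (40.4%, beside 33.9% of all genes) and 9 toward the proximal, beside 12.4% of all genes.

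A change in share can come from either site. To see which, the level of each site was tested on its own as CPM, counts scaled to the library size over the genes of these tables. Of the 525 proximal sites 142 were lower (27.0%) and 82 higher (15.6%) in PCF11_NIG_KD, and of the 525 distal sites 190 were higher (36.2%) and 82 lower (15.6%). Among the 178 genes that moved toward the distal site, the distal site was higher in 139 and the proximal site lower in 92. In 57 of them both held, in 71 only the distal site passed its test, in 32 only the proximal site, in 11 both sites were higher and in 3 both were lower. Among the 65 genes that moved toward the proximal site, the distal site was lower in 45 and higher in none, and the proximal site was higher in 25. Without control replicate 2 the number of proximal sites called lower was 86, without PCF11_NIG_KD replicate 1 it was 88, and without control replicate 1 there were 54 proximal sites called higher and 53 distal sites called lower.

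CG16972 shows a change at the distal site alone. The level of this site was 59.9 and 51.4 CPM in the controls and 811 and 780 CPM in the knockdowns, with a log2 change of 3.83 ± 0.19 and an adjusted p of 7.07e-10, while the proximal site changed by a log2 of 0.13 (adjusted p = 0.574). Its share fell only from 99.0% and 99.2% to 90.1% and 87.8%, since the proximal site holds most of its counts. The gene Edem2 is annotated on the opposite strand at one of its sites. The distal site of isopeptidase-T-3 rose from 154 and 160 CPM to 2195 and 2057 CPM (log2 change 3.76 ± 0.18, adjusted p = 7.07e-10), and that of CycB from 20.8 and 21.1 CPM to 294 and 275 CPM (log2 change 3.75 ± 0.48, adjusted p = 1.28e-05). Neither gene's total passed its test with all 18 libraries. The distal site of CG42588, with 2 and 0 counts in the controls, had 57 and 39 in the knockdowns.

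Among sites with at least 30 counts in the higher group, the greatest falls at a proximal site were those of Dl, dpr9, HDAC4 and Nmda1. The proximal site of Dl went from 193 and 175 CPM to 8.79 and 1.44 CPM (log2 change −5.05 ± 0.49, adjusted p = 7.83e-07), while its distal site was higher by a log2 change of 0.88 (adjusted p = 0.0255). In dpr9, which encodes an immunoglobulin-domain protein, the proximal site fell from 211 and 99.7 CPM to 11.3 and 2.88 CPM, and in HDAC4, a histone deacetylase gene, from 219 and 199 CPM to 16.3 and 23.1 CPM. The distal site was also lower in dpr9 (log2 change −2.54, adjusted p = 0.00457), while in HDAC4 its change of −1.28 did not pass the test (adjusted p = 0.156). The change of usage passed in neither (adjusted p = 0.0912 and 0.0618). In Nmda1 the proximal site fell from 146 and 160 CPM to 23.9 and 10.1 CPM (adjusted p = 1.13e-05), and AspRS and a noncoding RNA are annotated on the opposite strand there.

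**Figure D3:**
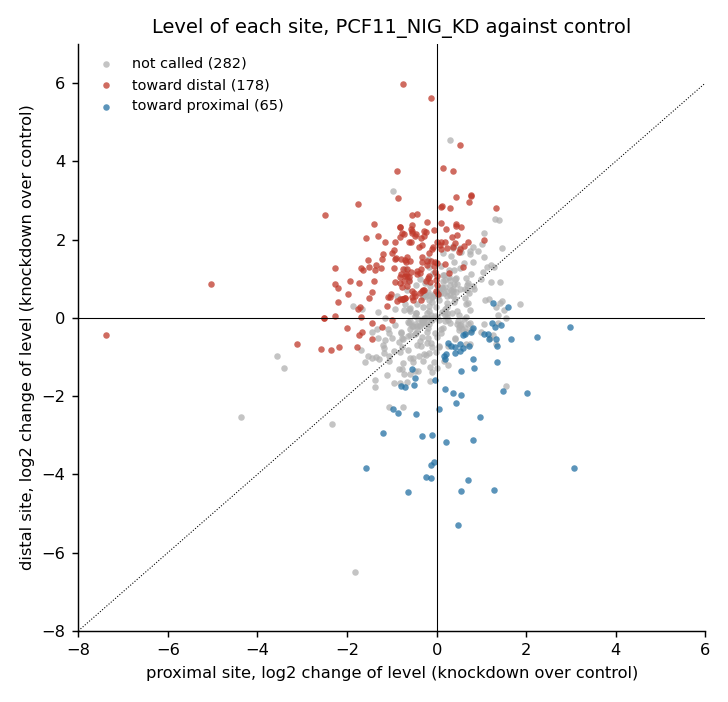
Log2 change of the level of the proximal site (horizontal axis) and of the distal site (vertical axis) of each of the 525 genes, PCF11_NIG_KD over control (edgeR, 2 libraries each); red points are genes called toward the distal site, blue toward the proximal site, grey not called, and the dotted line marks equal change at both sites. Most red points lie above the horizontal zero line (distal site higher in 139 of 178 by the test) and blue points lie below the dotted line.

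Of the 24 genes with 3 sites, all were tested. Between their 2 most used sites 10 moved toward the distal site and none toward the proximal, beside 33.9% and 12.4% of all genes. CG30015 gives the clearest case of a shift along all of its sites. From proximal to distal its sites held 58.2%, 36.8% and 5.0% of its counts in control replicate 1 and 61.8%, 34.4% and 3.9% in control replicate 2. In the knockdowns they held 27.7%, 41.6% and 30.7%, and 28.2%, 39.1% and 32.7%. In both knockdown libraries the first site lay below both controls, and the middle and the most distal site above them. In siz the middle site rose from 2.0% and 6.1% to 15.6% and 17.6%, while the most distal one went from 81.2% and 83.1% to 65.9% and 63.0%.

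In 8 of these 24 genes the 2 most used sites lie 31 to 84 nt apart, and no other pair in the tables is closer than 103 nt. Their shares stayed between 46.1% and 57.2% in each of the 4 libraries, and none was called. In CG12992, for example, the pair had 2456 and 2351 counts in control replicate 1 and 5169 and 5207 in PCF11_NIG_KD replicate 1. Whether the same reads were counted at both sites of such a pair was not tested. Between the outermost sites, 4 of the 8 moved toward the distal site and 1 toward the proximal site. CG46457 had a share of 48.0% and 48.8% against 46.1% and 46.9% between its close sites, but 87.9% and 85.3% against 57.5% and 60.5% between its outermost sites, 452 nt apart (log2 odds −2.16 ± 0.38, adjusted p = 0.000268). In LIMK1, a kinase that acts on cofilin, the share between the outermost sites rose from 80.2% and 80.7% to 93.3% and 94.9% (adjusted p = 2.49e-05). The centromere gene cal1 went from 94.9% and 93.9% to 86.1% and 85.3% (adjusted p = 0.0269).

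The genes that moved toward the distal site had their sites closer together. The median distance was 316 nt (quartiles 179 and 509) for the 178 genes, 553 nt (337 and 961) for the 65 that moved toward the proximal site and 470 nt (252 and 846) for those not called. Where the sites were at most 250 nt apart, 71 of 154 genes moved toward the distal site (46.1%) and 12 toward the proximal site (7.79%). At over 250 to 600 nt these were 78 and 24 of 199 genes, and at over 600 nt 29 and 29 of 172 (16.9% each). Control shares also differed between these classes, with medians of 65.1%, 80.3% and 84.4%, and the part of that difference in the calls was not tested. By annotation, 85 of 220 genes whose distal site lies downstream of the annotated gene end moved toward the distal site (38.6%), against 89 of 292 whose distal site lies in the annotated 3′ UTR (30.5%). Moves toward the proximal site were found in 15 of the former (6.82%) and 48 of the latter (16.4%). By depth, 19 of 132 genes with the fewest counts and 70 of 131 with the most moved toward the distal site, while 19 and 18 moved toward the proximal site. These counts are descriptions without a test. Another gene is annotated at the sites of some of the 525 genes, on the opposite strand in 120 and only on the same strand in 34, and since counting did not use strand the reads of such genes cannot be told apart. Among genes named here these include Wee1, twe, vih, Trc8, CG5916, CG32100, cal1, fdl and Pc (opposite strand) and Su(Tpl), orb2 and Hr3 (same strand).

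**Figure D4:**
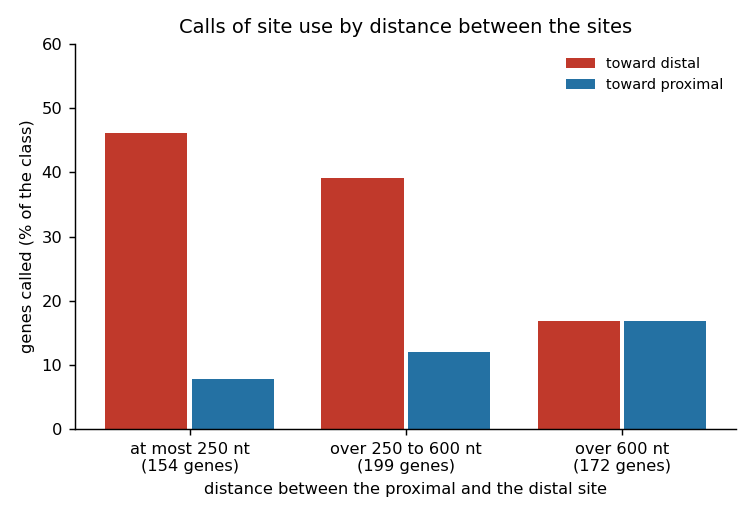
Percent of genes called toward the distal site (red) and toward the proximal site (blue) in PCF11_NIG_KD against control, by distance between the proximal and the distal site in nucleotides; numbers of genes are under the bars and no error is drawn, since the bars are shares of the genes tested. The red bars fall from 46.1% to 16.9% from the shortest to the longest class.

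The total of each gene, the sum over its sites, was higher in PCF11_NIG_KD in 109 genes (20.8%) and lower in 120 (22.9%) relative to the genes of these tables; 39 and 62 of these changed by at least 2-fold. The number lower was 79 without control replicate 2, 71 without PCF11_NIG_KD replicate 1 and 69 without replicate 2. Totals and usage were not tied in direction. Of the 178 genes toward the distal site, 40 had a higher total and 41 a lower one, and of the 65 toward the proximal site these numbers were 17 and 19.

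The greatest rises in total were those of CG10089 (154 and 159 CPM in the controls, 680 and 536 in the knockdowns), CG32100 (174 and 168 against 578 and 515), CG4266, CG42588, spd-2 (364 and 388 against 995 and 1188) and CG31635. For CG10089 the log2 change was 1.96 ± 0.17 and for spd-2 1.54 ± 0.14, both with an adjusted p of 1.43e-06. Genes named for the greatest changes in total were chosen only among calls whose groups did not overlap. CG31635 had no count at its distal site in any of the 4 libraries, so its total is the level of 1 site. Of the cell cycle and meiosis list 9 of 16 tested genes were higher, beside 20.8% of all genes. These 9 were CycA (291 and 379 CPM against 804 and 931), pim (501 and 504 against 1090 and 1107), mei-S332, Wee1, CycB3, gwl, CycT, vih and twe. Of these, 4 lost the call without control replicate 1, with an adjusted p of 0.115 for gwl, 0.142 for CycT, 0.0541 for vih and 0.111 for twe. CycT also lost it without any of the other libraries (0.0609 to 0.0690), and the other 5 genes kept it without each library. The gene fzr, whose product activates the anaphase-promoting complex, was lower, with a log2 change of −0.88 (adjusted p = 0.000140). In the centriole, microtubule and motor list 7 of 11 were higher, also beside 20.8% of all genes. For neither list was the difference from all genes tested.

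Among genes with lower totals, dpr9 fell from 364 and 195 CPM to 25.3 and 28.2 CPM (log2 change −3.38 ± 0.54, adjusted p = 0.000202) and HDAC4 from 280 and 235 CPM to 34.1 and 37.1 CPM (log2 change −2.85 ± 0.32, adjusted p = 1.40e-05). Rbp9, an RNA-binding protein of the ELAV family, fell from 1596 and 1460 CPM to 234 and 232 CPM (log2 change −2.71 ± 0.22, adjusted p = 1.13e-06). In these 3 genes, chosen among calls whose groups did not overlap, both knockdown libraries lay far below both controls. Rab5 fell from 2103 and 1765 CPM to 343 and 349 CPM, and gdl-ORF39, which overlaps gdl on the same strand, from 3710 and 3985 CPM to 751 and 553 CPM. The entry E(bx)-PC of E(bx), a subunit of a nucleosome remodelling complex, fell from 86.8 and 110 CPM to 24.0 and 14.9 CPM. Of the chromatin and transcription list 12 of 30 were lower and 1 higher, and of the signalling list 11 of 27 were lower and 2 higher, beside 22.9% lower and 20.8% higher of all genes; the difference from all genes was not tested.

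Some markers of cell types changed in total and others did not, and their part in the totals of other genes was not tested. Of 13 listed markers of early germ cells 2 were measured, Rbp9 and chinmo, and their summed level went from 2722 and 2895 CPM to 1482 and 1523 CPM; the fall was that of Rbp9, while chinmo, a transcription factor of germline and cyst stem cells, had a log2 change of −0.01 (adjusted p = 0.963). Of 15 listed markers of somatic cyst and hub cells 2 were measured, chinmo again and zfh1, a factor of cyst stem cells, with sums of 1582 and 1918 CPM against 1374 and 1414 CPM. The level of zfh1 fell by 1.91 on the log2 scale (adjusted p = 2.59e-05). Spermatocyte genes (CycB, simj and twe) summed to 2741 and 3319 CPM against 3741 and 4317 CPM, and spermatid genes (m-cup, nes, orb2 and r-cup) to 14575 and 14279 CPM against 13541 and 14583 CPM. The spermatid sums overlapped between the groups and the other sums did not. Of single genes, twe alone of the 3 spermatocyte genes was called higher, and m-cup alone of the 4 spermatid genes was called lower (log2 change −0.44, adjusted p = 0.0229). The total of CycB was called higher when only the 4 libraries were fitted (edgeR, log2 change 0.49, adjusted p = 0.000127). The call of m-cup was lost without control replicate 2 (adjusted p = 0.459), PCF11_NIG_KD replicate 1 (0.180) or PCF11_NIG_KD replicate 2 (0.308), and that of twe without control replicate 1. In usage, chinmo fell from 81.6% and 80.4% to 48.6% and 50.6% (adjusted p = 1.84e-06), and the share of Rbp9 rose from 9.12% and 8.58% to 24.9% and 24.4% (adjusted p = 0.00778). The share of zfh1 rose from 22.1% and 25.9% to 47.0% and 50.6%, but its adjusted p of 0.0447 became 0.101 to 0.158 when any of the 4 libraries was left out. The spermatid genes m-cup, nes and orb2 and the spermatocyte gene simj were not called. In r-cup the share was 93.8% and 94.9% against 88.6% and 90.3%, and its adjusted p of 0.00589 became 0.0568 without control replicate 2.

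**Figure D5:**
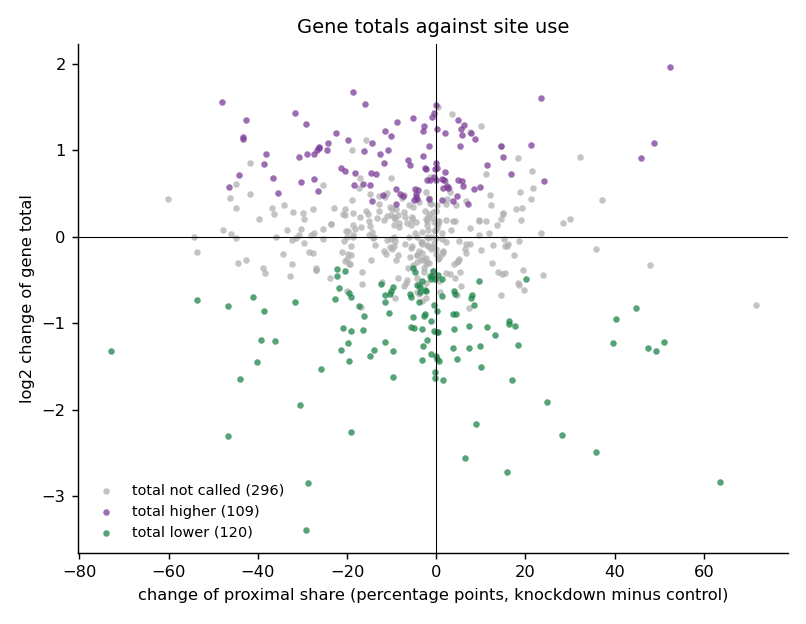
Change of proximal share (horizontal axis, percentage points, PCF11_NIG_KD minus control) against the log2 change of the gene total (vertical axis) for the 525 genes; purple points are the 109 totals called higher, green the 120 called lower and grey the 296 not called. Purple and green points lie on both sides of the vertical zero line.

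PCF11_NIG_KD was then compared directly with the other PCF11 line and with the knockdown of the partner subunit, in contrasts that leave the controls out, although all 18 libraries set the spread. Proximal use differed between PCF11_NIG_KD and PCF11_KD in 119 genes (22.7%), of which 101 were more proximal and 18 more distal in PCF11_NIG_KD. For 63 of the 119 the share of PCF11_NIG_KD lay between those of control and PCF11_KD. Without PCF11_NIG_KD replicate 1 the counts were 63 and 10, without PCF11_NIG_KD replicate 2 they were 64 and 11, and without PCF11_KD replicate 2 they were 64 and 12. Both comparisons with control share the control libraries, so their calls are given only side by side. Against control, PCF11_KD had 230 genes toward the distal and 50 toward the proximal site, beside 178 and 65 in PCF11_NIG_KD.

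RasGAP1 had no proximal count in PCF11_NIG_KD, while its share was 43.5% and 38.2% in PCF11_KD and 33.3% and 45.5% in control (adjusted p = 0.00112 between the lines). With 0 counts no size is given beyond the limit of 4.48% stated above. Fs(2)Ket, which encodes the importin beta subunit, had 32.6% and 25.97% in PCF11_NIG_KD, 75.4% and 73.1% in PCF11_KD and 68.2% and 67.4% in control (−2.80 ± 0.28, adjusted p = 1.23e-05). Its sites lie 11957 nt apart, the longest distance in the tables, with the proximal site in an intron and Amacr annotated on the opposite strand. In both genes PCF11_KD lay close to control. The entry E(bx)-PC (36.8% and 10% against 84.3% and 100%) and dpr9 (45.0% and 10.5% against 86.0% and 61.5%) were also more distal in PCF11_NIG_KD, with adjusted p of 0.0104 and 0.0298; without PCF11_NIG_KD replicate 2 these became 0.0732 and 0.269, and that of dpr9 was 0.238 without PCF11_KD replicate 1.

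In the other direction, Spt20, a subunit of the SAGA complex, had 100% and 96.7% in PCF11_NIG_KD, 53.3% and 53.1% in PCF11_KD and 62.1% and 62.9% in control (difference of log2 odds 5.51 ± 1.02, adjusted p = 0.00194). Src42A had 100% and 63.6% against 7.14% in both PCF11_KD libraries (5.18 ± 1.13, adjusted p = 0.00481). In the entry mod(mdg4)-PAA of the chromatin gene mod(mdg4), PCF11_NIG_KD had 95% and 93.5%, near the controls with 96.6% and 90.5%, and PCF11_KD had 56.9% and 42.3% (3.92 ± 0.82, adjusted p = 0.00383). Also, 3 other genes of that locus are annotated on the same strand at its sites. Hr3, a nuclear receptor gene, had 83.0% and 57.1% against 29.4% and 14.3% (adjusted p = 0.0324), a difference that lost its call without PCF11_NIG_KD replicate 1 (0.268), PCF11_KD replicate 1 (0.0750) or PCF11_KD replicate 2 (0.181).

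For the 14 genes with the greatest falls named above, shares in PCF11_KD ran from 12.6% to 56.5%, beside 5.55% to 49.3% in PCF11_NIG_KD and 65.3% to 96.0% in control. PCF11_KD was further from control in 5 of them and nearer in 2 by the direct test. Those nearer were Dl (44.9% in PCF11_KD) and MCU (56.5%). For the 10 genes with the greatest rises PCF11_NIG_KD was further from control than PCF11_KD in 8 by the direct test. These values describe genes chosen for their change in PCF11_NIG_KD.

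The comparison with cbc_KD showed more differences. Proximal use differed in 318 genes (60.6%), with 295 more proximal and 23 more distal in PCF11_NIG_KD. The last number was 10 to 13 when any library of the pair was left out. CG43954 had shares of 84.1% and 87.0% in PCF11_NIG_KD and 82.4% and 83.2% in control, but 10.7% and 17.9% in cbc_KD (difference of log2 odds 5.15 ± 0.47, adjusted p = 6.50e-07); Lasp is annotated at its sites on the same strand. app, a palmitoyltransferase gene, had 84.0% and 82.3% against 15.7% and 9.07% (adjusted p = 9.43e-07), and fdl, a hexosaminidase gene, 79.3% and 81.7% against 14.8% and 15.1% (adjusted p = 6.66e-08). In these genes PCF11_NIG_KD lay close to control and was not called, with 95% intervals of the log2 odds against control of −0.67 to 1.28 for CG43954, −1.26 to 0.81 for app and −0.81 to 0.36 for fdl. The share of mod(mdg4)-PAA was 26.3% and 36.8% in cbc_KD. In the opposite direction E(Pc), a chromatin gene, had 24.3% and 15.0% in PCF11_NIG_KD and 47.5% and 47.8% in cbc_KD (adjusted p = 0.000243). The genes mol, Lrch (entry Lrch-PC) and Pc, the first of which moves a dual oxidase to the membrane and the last a Polycomb protein, were also more distal in PCF11_NIG_KD, with adjusted p of 0.0244, 0.0269 and 0.00904. Each of these 3 calls was lost when a library was left out: for mol the adjusted p was 0.107 without cbc_KD replicate 2, 0.0593 and 0.128 without PCF11_NIG_KD replicate 1 and 2, for Lrch-PC 0.108 without cbc_KD replicate 2 and 0.156 without PCF11_NIG_KD replicate 2, and for Pc 0.0919 without cbc_KD replicate 1 and 0.0601 without PCF11_NIG_KD replicate 1.

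The authors' deposited table for this knockdown lists 464 genes, of which 355 have an adjusted p below 0.05, 241 with an index above 0 (lengthening) and 114 below 0 (shortening). Of these 355 calls in the authors' deposited table, 226 (63.7%) were also called by edgeR, which are 93.0% of the 243 edgeR calls; the other 17 edgeR calls concern genes that the authors' deposited table does not list. The direction was the same in 225 of the 226.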

How the data were processed

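Drosophila testis libraries (QuantSeq FWD, per the labels' protocols) were counted by the authors at poly(A) sites. The deposited values are raw counts per site, not normalized. Per the file headers and log, PolyA-miner was run without strand or molecular identifiers, on a fixed site list, with a beta-binomial test; the submitters' processing notes name Bowtie, SAMtools, dm6 and BDGP6. The authors' deposited table gives an adjusted p-value and an index (a score, above 0 for lengthening) per gene. How the listed genes were chosen is not given in the sources used here.

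The 4 libraries and, for the spread and the direct tests, the other 14 entered edgeR 4.0.16 (R 4.3.3, quasi-likelihood, Benjamini-Hochberg adjustment, threshold 0.05). Usage was tested on the counts of both sites within each library, in 36 columns. The 525 genes tested were those whose counts averaged 10 or more over the 18 libraries. In genes with 3 sites the 2 most used were taken. Totals and sites were tested with TMM scaling. The tests were run on simulated counts with the same spread for every gene. Such counts cannot show how the tests perform where the spread differs between genes. DESeq2 1.42.0, other scalings and filters, the 4 libraries alone, a replicate block and leaving out each library were alternatives. Annotation came from Ensembl BDGP6 gene models; no genome sequence was used, so the planned listing of site sequences was left out. Depth is the total count per library; limits for counts of 0 cover counting error only. Replicate numbers did not pair the libraries: deviations of same-numbered libraries correlated at 0.014 for usage and −0.036 for totals. Usage genes named had the greatest changes in points among calls with at least 30 counts, and totals and sites the greatest log2 changes. For these, both knockdown libraries also had to lie on the same side of both controls. Lists named their greatest called moves and most counted uncalled members, and direct tests the 4 greatest differences in points each way. Genes outside these rules were chosen after their values were seen. The members and lists were chosen with earlier results of these data known.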

Additional observations from a re-analysis of the deposited data

Results flagged for a closer look

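Differences between knockdowns were tested directly, with edgeR's quasi-likelihood test. Proximal use differed between PCF11_NIG_KD and PCF11_KD in 119 genes and between PCF11_NIG_KD and cbc_KD in 318. The 8 genes singled out between the PCF11 lines had the greatest differences of share in points by the direct test, which leaves the controls out. The order of these genes in log2 odds is another. As log2 odds of the proximal site, PCF11_NIG_KD minus PCF11_KD, the difference was −4.53 in E(bx)-PC, −2.99 in dpr9 and −2.80 in Fs(2)Ket. The totals of E(bx)-PC and dpr9 were low in PCF11_NIG_KD, as given above. In RasGAP1 the proximal site had 0 counts in PCF11_NIG_KD, which allows a share of up to 4.48%, so no size is given. The difference was 5.51 in Spt20, 5.18 in Src42A, 3.92 in mod(mdg4)-PAA and 3.21 in Hr3. Against cbc_KD the difference was −2.32 in Pc, −2.04 in mol, −1.95 in Lrch-PC and −1.91 in E(Pc). It was 5.17 in app, 5.15 in CG43954, 5.08 in mod(mdg4)-PAA and 4.54 in fdl.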

How the results depend on the processing

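Direction was checked only for the genes named here and those whose totals were rerun. None that was called changed direction in an alternative run that gave it an adjusted p. Some genes without a call, with values near 0, changed sign (Eb1, for example). Leaving out 1 library gave 122 to 163 genes toward the distal and 41 to 54 toward the proximal site, 78 to 109 totals higher and 69 to 89 lower. It gave 145 to 169 distal sites higher and 53 to 61 lower, and 54 to 72 proximal sites higher and 86 to 106 lower. Against PCF11_KD it gave 63 to 72 genes more proximal and 10 to 14 more distal, and against cbc_KD 249 to 282 and 10 to 13. With only the 6 libraries of control and the PCF11 lines, 29 genes were more distal than in PCF11_KD. The difference of the median shares was −10.03 to −7.60 points. Leaving out a library moved the median log2 change of all totals to at most 0.16, while other scalings moved it to 0.02. Totals and sites were called against a change of 0 after scaling, not against that median. A median away from 0 thus enters the numbers called higher and lower.

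The replicate block, though the numbers share no pairing in the labels, gave 185 and 69 usage calls, with 242 of the 243 calls kept. DESeq2 gave 173 and 64, and the 4 libraries alone 194 and 78. Totals and sites depended more on which libraries set the spread. With the 4 libraries alone 171 totals were lower and 157 higher, beside 120 and 109 with all 18. Of proximal sites 179 were then lower and 123 higher, beside 142 and 82. Of distal sites 215 were higher and 106 lower, beside 190 and 82. Of 75 genes named for usage, 57 stayed on the same side of the threshold in every alternative run and 18 crossed it in 1 or more. Of 36 genes whose totals were rerun, those named and the cell cycle and marker lists, 26 stayed on theirs and 10 did not. The 8 genes named for sites did. With 2 libraries a group and a mean of 10 counts as the minimum, genes of few counts had wide intervals.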
